A study of Mus musculus with 35 samples.

Results

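H3K27me3 was compared between mouse embryonic fibroblasts (MEFs) treated with and without Forskolin, on day 4 of chemical reprogramming. The members were 6 of the 35 samples of the series, each a single ChIP-seq library of 1 treatment, and they were chosen by whether the treatment name holds an F. The 3 treatments with Forskolin were 6FAE, CFAE and C6FAE, and the 3 without it were AE, Basal and C6AE. The letters stand for CHIR99021 (C), an inhibitor of the kinase GSK3; an inhibitor of the TGF-beta receptor kinase ALK5 (6); Forskolin (F), which raises cAMP; AM580 (A), a retinoic acid receptor agonist; and EPZ004777 (E), an inhibitor of the H3K79 methyltransferase DOT1L. By their names, A and E were given in all 3 treatments with Forskolin and in AE and C6AE, and the sources do not say what Basal held. Only C6FAE and C6AE have names that differ by F alone, while the other treatments also differ in C or 6, or in what Basal held. A seventh H3K27me3 library, titled Ctr but labelled with the treatment C6FAE, was of unknown condition and its RPKM column was not used.

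H3K27me3 is the trimethylation of lysine 27 on histone H3. It is placed by Polycomb repressive complex 2 and spreads over broad domains, many of them at developmental genes that are kept silent in a differentiated cell. H3K4me3 marks the starts of active or poised genes. Some regions carry both marks, a state known from embryonic stem cells as bivalent chromatin, and ATAC-seq reads mark open chromatin. The level was the deposited RPKM, the reads per kilobase scaled to library size, averaged over each of 19224 regions of the mm9 genome and used as log2(RPKM + 1). Gene names could not be joined to these positions here, so regions are named by position only, and the labelled cell type was not checked against marker genes. With 1 library per treatment, the treatments served as the units, and no separate cultures of 1 treatment were sequenced for this mark.

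Library depth differed by about an order of magnitude and did not follow the groups. The libraries held 633980 tags in 6FAE, 3294779 in CFAE and 5919506 in C6FAE, against 2876197 in Basal, 5537372 in AE and 6392309 in C6AE. The shallow 6FAE library had 3077 regions at 0 RPKM, or 16.0% of the table, and each of the other 5 libraries had between 80 and 496. A 0 in 6FAE therefore cannot be read as absence of the mark. The counts called by limma and the length gap are given with and without this library. The ranked regions and the shares of regions whose groups did not overlap are given only with it.

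The regions of the table were themselves made from peaks of these libraries, which bears on every value that follows. Of the 19224 regions, 98.7% started at the start, and 98.8% ended at the end, of a listed peak of at least 500 bp with a -log10 p of at least 3 in 1 of the 7 H3K27me3 libraries, and no gap between neighbouring regions was under 1001 bp. Such peaks are called founding peaks here. The lists held 18259 of them in C6AE, 11742 in Basal and 4624 in AE, against 6483 in 6FAE, 3765 in CFAE and 672 in C6FAE. As a result, 80.7% of the regions carried a founding peak from a library without Forskolin and 36.1% from a library with it. A founding peak from a single library was found in 65.2% of regions. The 1684 regions with a founding peak in the left-out library can be picked without use of the 6 libraries compared. Peaks of the 6 could still extend or share them, and 185 were founded by the left-out library alone. They are reported beside all regions for the main comparisons. The condition of the left-out library was unknown, and whether its peaks favour regions that are high in 1 group was not tested. Of the 1684 regions, 1310 lay in the longest quartile of the table. In that quartile 99.9% of regions carried a founding peak from a library without Forskolin.

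The level of H3K27me3 over the table was lower in every treatment with Forskolin than in every treatment without it. The median RPKM over regions was 2.50 in C6FAE, 2.75 in CFAE and 3.33 in 6FAE, against 4.07 in AE, 4.75 in Basal and 5.18 in C6AE. On the log2(RPKM + 1) scale the column median was 1.94 ± 0.16 (SD, n = 3) with Forskolin and 2.50 ± 0.14 (SD, n = 3) without, a difference of -0.56. The exact two-sided permutation test gave p = 0.1, which is the smallest value that the 20 splits of 3 against 3 allow, and 0.2 after Benjamini-Hochberg adjustment over the 8 exact tests made here. The groups did not overlap, but no permutation test over these 6 libraries could reach 0.05. Of the regions, 62.6% had a founding peak without Forskolin and none with it, and 18.1% the reverse. The difference was -0.76 in the former and 0.75 in the latter. The test thus used regions that the compared libraries had largely chosen, and its outcome is a description. Mean RPKM over regions, leaving out the mitochondrial ones, was 2.74 in C6FAE, 3.01 in CFAE and 4.56 in 6FAE, against 4.36 in AE, 4.76 in C6AE and 4.88 in Basal. By the mean, 6FAE was thus above AE and the groups overlapped (exact permutation p = 0.2).

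The groups also lay apart in regions picked through the left-out library. In the 1684 regions with a founding peak in the left-out library, the column medians of log2(RPKM + 1) were 2.09 in C6FAE, 2.29 in CFAE and 2.63 in 6FAE, against 2.95 in C6AE and 3.16 in Basal, with AE between them. These regions had a median length of 14674 bp, and the difference of -0.74 between the group means was larger than that over all regions. Mean RPKM in them was 5.0 in C6FAE, 5.17 in CFAE and 6.99 in 6FAE, against 7.46 in C6AE, 9.01 in AE and 9.10 in Basal, so that the groups did not overlap on this scale either. In the 185 regions founded by the left-out library alone, with a median length of 762 bp, the medians of log2(RPKM + 1) ran from 1.21 to 1.54 with Forskolin and from 1.87 to 1.93 without, a difference of -0.49. Mean RPKM in these 185 regions did not follow this order, at 7.38 in 6FAE, 7.69 in CFAE and 10.1 in C6FAE, against 5.27 in C6AE, 7.20 in Basal and 9.92 in AE, and the groups overlapped.

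**Figure D1:**
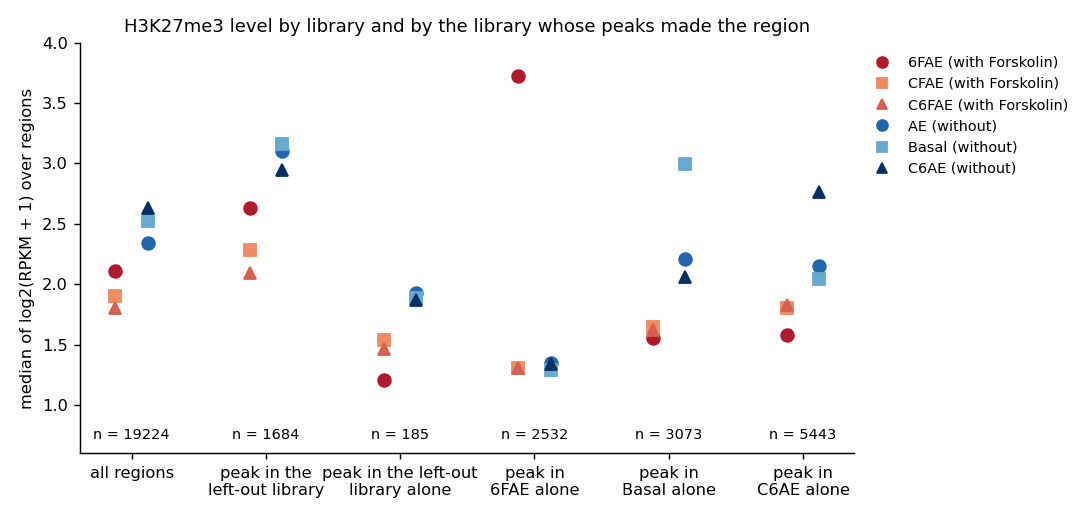
Median log2(RPKM + 1) of H3K27me3 in the 6 libraries (vertical axis, each symbol 1 library, red with Forskolin and blue without) over all regions and over sets defined by the library whose peaks founded the region; "left-out library" is the Ctr-titled library. The groups lie apart over all regions (1.81 to 2.11 against 2.34 to 2.63) and over the 1684 regions with a founding peak in the left-out library, while regions founded by 1 compared library alone stand high in that library.

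Regions founded by a single compared library showed how far the choice of regions set the level. The 2532 regions founded by 6FAE alone had a median of 3.72 in 6FAE, and of 1.30 in CFAE, 1.30 in C6FAE, 1.35 in AE, 1.29 in Basal and 1.34 in C6AE. Apart from the library that chose them, the treatments thus lay between 1.29 and 1.35 there. In the 3073 regions founded by Basal alone the median was 3.00 in Basal, 2.21 in AE and 2.06 in C6AE, and 1.56 to 1.65 in the 3 treatments with Forskolin. In the 5443 regions founded by C6AE alone it was 2.76 in C6AE, 2.15 in AE and 2.05 in Basal, and 1.58 to 1.83 with Forskolin. In both sets the libraries without Forskolin that had not founded the regions were also above those with Forskolin. Regions founded from the other group did not show this order. In the 811 founded by CFAE alone, C6FAE (1.71) was above AE (1.63) and Basal (1.58) and below C6AE (1.86), and 6FAE was at 0.73. In the 94 founded by C6FAE alone, CFAE (1.61) was above AE (1.49) and Basal (1.53) and below C6AE (1.75), and 6FAE was at 0.23. The order thus moved with the group that founded the regions. These values are descriptions, since the founding library chose the regions and the other libraries had no founding peak in them.

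Against that low level, the long regions stood out less in the treatments with Forskolin. Mean RPKM over the 2532 regions founded by 6FAE alone was 1.67 in C6FAE, 1.69 in CFAE, 1.91 in AE, 1.88 in Basal and 1.91 in C6AE. Mean RPKM over the longest quartile of regions (4806 regions of at least 5838 bp) was 2.01 times this value in C6FAE and 2.19 times in CFAE. The ratio was 3.38 in AE, 3.52 in Basal and 3.31 in C6AE. Of this quartile, 99.9% carried a founding peak from a library without Forskolin, so these ratios are descriptions. Over its 1310 regions with a founding peak in the left-out library, the ratio was 2.58 in C6FAE and 2.87 in CFAE. In the treatments without Forskolin it was 4.77 in AE, 5.11 in Basal and 4.08 in C6AE. For 6FAE, which chose the low regions, no ratio was formed. The low regions were also picked for having no founding peak in the other libraries, so all these ratios are descriptions.

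Region by region, lower values with Forskolin were far more frequent than higher ones, but the count past an adjusted threshold depended on the libraries and regions entered. The treatments with Forskolin were all below those without it in 7119 regions, which is 37.0% of the table, and all above in 374, which is 1.95%. Of the 12041 regions founded without Forskolin only, 5420 were all below and 1 all above. Of the 3472 founded with Forskolin only, 3 were all below and 352 all above. Of the 3467 founded in both groups, 1659 were all below and 17 all above. The counts moved with the founding group, so the counts over the table are descriptions. With limma on log2(RPKM + 1) as deposited, 0 regions (0%) passed an adjusted p of 0.05 in either direction, and the smallest adjusted p was 0.0935. At an unadjusted p under 0.05, limma gave 5495 regions lower with Forskolin (28.6%) and 182 higher (0.947%). The median difference over all regions was -0.58. Of the 1684 regions with a founding peak in the left-out library, 59.0% were lower in all treatments with Forskolin and 0.297% higher, and 62.9% were lower at an unadjusted p under 0.05 in the fit over all regions. Of the 185 founded by the left-out library alone, 17.8% were lower in all treatments with Forskolin and 0% higher. Without the shallow 6FAE library, 4416 regions (23% of 19224) were lower at an adjusted p under 0.05 by limma and 71 (0.369%) were higher. With 6FAE kept, 4467 of 19224 regions were lower and 47 higher with log10 tags as a covariate. Fitted to the 9614 regions from the median length upward, limma gave 3889 lower and 10 higher. In length quartiles 3 and 4, 97.9% and 99.9% of regions carried a founding peak from a library without Forskolin. From a library with it, 17.1% and 51.2% did, so the counts in longer regions are descriptions too.

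Each column was then centred on its own median, which takes out a shift shared by all regions, whatever its origin. On this scale limma called 0 regions lower and 7 higher (0.0364%) with Forskolin at an adjusted p under 0.05, with 271 lower (1.41%) and 1343 higher (6.99%) at an unadjusted p under 0.05. The centred groups did not overlap in 1188 regions lower (6.18%) and 1755 higher (9.13%) with Forskolin. Since centring moves all regions of a column alike, these counts say how regions differed relative to the rest of the table. Of the 7 regions called, 1 at chr2:181652039-181653851, with the lowest adjusted p (0.0047 by limma) and chosen after its values were seen, had 19.7 RPKM in C6FAE, 22.3 in CFAE and 27.9 in 6FAE, against 10.5 in Basal, 12.5 in AE and 12.7 in C6AE. The groups did not overlap there. Without AE, Basal or C6AE, respectively, 1, 0 and 0 regions were called, and without 6FAE 27.

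Longer regions differed more evenly. In the longest quartile, with a median length of 11060 bp, the column medians of log2(RPKM + 1) were 2.00 in C6FAE, 2.12 in CFAE and 2.30 in 6FAE, against 2.81 in AE, 2.83 in Basal and 2.81 in C6AE. All 3 treatments with Forskolin were below all 3 without in 65.6% of its regions, and above in 0.0832%. These regions had entered the table largely through the libraries without Forskolin: 99.9% of them carried a founding peak from that group and 51.2% from the treatments with Forskolin, so the share is a description. In the shortest quartile (501 to 907 bp) the medians were 1.53 in C6FAE, 1.56 in CFAE and 2.23 in 6FAE, against 1.76 in AE, 1.92 in Basal and 2.00 in C6AE. Here 6FAE was the highest of the 6 and the groups overlapped, and 13.4% of regions were lower in all treatments with Forskolin. In this quartile 33.3% of regions were at 0 in 6FAE, while 32.3% carried a founding peak from it.

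**Figure D2:**
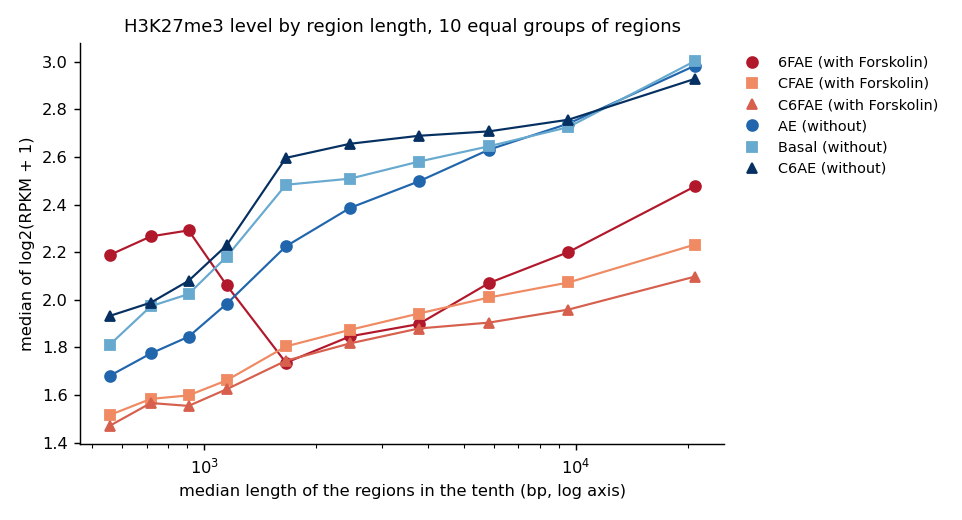
Median log2(RPKM + 1) of H3K27me3 (vertical axis) against the median length of regions in each decile of length (horizontal axis, bp, log scale), 1 line per library, red with Forskolin and blue without. The groups lie apart in the 6 longer deciles, and 6FAE lies above all the other libraries in the 3 shortest.

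Across the 10 deciles of length, the groups lay apart in 6, from a median length of 1658 bp upward, and the difference of the group means ranged from -0.70 in the longest decile to -0.08 in the shortest. The gap between the longest and the shortest quartile was 0.06 in 6FAE, 0.47 in C6FAE and 0.57 in CFAE, against 0.80 in C6AE, 0.91 in Basal and 1.05 in AE. A founding peak from a library without Forskolin was carried by 99.9% of the longest and 54.8% of the shortest quartile. The test of this gap thus used sets that the compared libraries had chosen, and its outcome is a description. The groups differed by -0.55 in this gap (exact permutation p = 0.1, adjusted 0.2). Without 6FAE the difference was -0.40. Among the regions with a founding peak in the left-out library, it was -0.13 (exact permutation p = 0.9), and the level was lower in all treatments with Forskolin in each of the 4 length quartiles there, with differences of -0.74 to -0.61. That value rested on 6FAE, whose median in the 122 shortest of these regions was 0.56: without 6FAE it was -0.61.

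**Figure D3:**
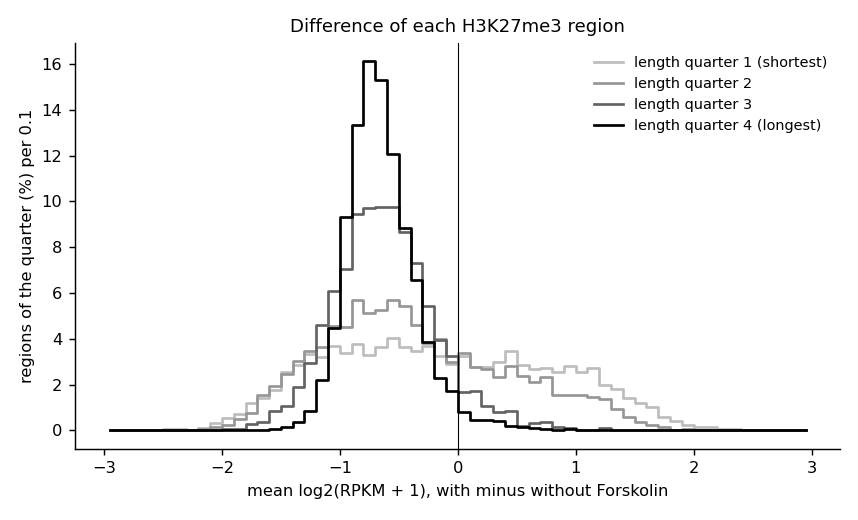
Distribution of the difference of each H3K27me3 region (horizontal axis, mean log2(RPKM + 1) with minus without Forskolin; vertical axis, percent of regions of the quartile per bin of 0.1) in the 4 quartiles of region length. The longest regions form 1 narrow peak below 0, with 97.4% of regions below 0, and the shortest spread on both sides, with 56.9% below 0.

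The regions with the largest differences were short and rested on few reads. By a fixed rule, the 5 largest decreases and 5 largest increases were taken among regions whose groups did not overlap, and centring picked the same 10. The largest decrease, at chr4:53789090-53789610 (521 bp), had 0 RPKM in 6FAE and CFAE and 1.67 in C6FAE, against 5.14 in AE, 7.48 in Basal and 7.52 in C6AE. It differed by -2.46 ± 0.57 (SE) on the log2 scale (limma adjusted p = 0.0935). The region at chr12:112738288-112738846 had 0 RPKM in 6FAE, 0.22 in CFAE and 0.86 in C6FAE, against 5.46 to 6.72 without Forskolin. The other 3 decreases, at chr7:97572022-97572859, chr4:133747802-133748732 and chr9:57693167-57693676, were 510 to 931 bp long and were all at 0 in 6FAE, with differences of -2.31 to -2.40. Each of these 5 regions was founded by Basal or C6AE alone, and none overlapped an H3K4me3 or ATAC region of the deposited tables. Of the 3384 regions (17.6%) whose group means differed by at least 2-fold downward, 51.6% were at 0 in 6FAE, against 16.0% of all regions.

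The largest increases were regions of 6FAE. The region at chr15:51388816-51389386 (571 bp) had 15.2 RPKM in 6FAE, 4.27 in CFAE and 4.00 in C6FAE, against 1.09 in AE and 0 in Basal and C6AE. It differed by 2.56 ± 0.66 (SE) on the log2 scale (limma adjusted p = 0.0935). The region at chr14:59477917-59478796 had 14.4 RPKM in 6FAE, 2.88 in CFAE and 6.44 in C6FAE, against 0.04 to 1.10 without Forskolin. The other 3, at chr9:87412166-87412853, chr5:15259331-15260041 and chr3:52098523-52099023, had 13.0 to 15.8 RPKM in 6FAE and 1.78 to 4.59 in CFAE and C6FAE. All 5 carried a founding peak of 6FAE, and none passed either limma fit. They overlapped no H3K4me3 or ATAC region, like 15725 of the 19224 regions of the table. Of the 1018 regions (5.30%) whose means differed by at least 2-fold upward, 88.0% carried a founding peak of 6FAE, against 26.0% of all regions.

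The 3 longest regions showed the common difference, and in none of them did the groups overlap. In the longest decile 69.9% of regions were lower in all treatments with Forskolin, against 37.0% of the whole table. The 3 longest regions carried founding peaks of AE, Basal and C6AE, and also of 6FAE and CFAE. The longest, at chr5:35572432-35788657 (216226 bp), had 4.22 RPKM in CFAE, 4.33 in C6FAE and 6.41 in 6FAE, against 7.89 in Basal, 8.20 in AE and 10.3 in C6AE. Its difference was -0.72 ± 0.21 (SE) on the log2 scale, with a limma adjusted p of 0.0977, and -0.17 after centring. The region at chr5:139964235-140166609 (202375 bp) had 3.98 RPKM in C6FAE, 4.75 in CFAE and 8.21 in 6FAE, against 8.57 in C6AE, 9.62 in AE and 9.75 in Basal. The region at chr9:107243380-107435892 (192513 bp) had 4.00 RPKM in C6FAE, 4.76 in CFAE and 5.12 in 6FAE, against 7.58 in Basal, 8.36 in AE and 9.40 in C6AE. All 3 overlapped ATAC regions, by 5875 to 6502 bp, and the first and the last overlapped H3K4me3 regions, by 2595 and 4873 bp. Centring left differences of -0.13 to -0.19 in the 3 regions.

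Among regions over 10 kb, a set chosen after the lengths and values had been seen, 2 stood at the top of the decreases. The region at chr15:99345981-99361660 (15680 bp) had 0.87 RPKM in 6FAE, 2.05 in CFAE and 2.44 in C6FAE, against 5.86 in C6AE, 7.01 in AE and 7.16 in Basal. The region at chr15:76344734-76354746 (10013 bp) had 4.02 in C6FAE, 4.42 in CFAE and 4.60 in 6FAE, against 11.4 in C6AE, 15.1 in Basal and 15.8 in AE. The latter differed by -1.49 ± 0.18 (SE) as deposited and by -0.93 after centring, passed neither limma fit (adjusted p 0.0935 and 0.279), and had 6645 of its bases in H3K4me3 regions and 7545 in ATAC regions.

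Regions that also carried H3K4me3 had a higher level of H3K27me3 in both groups, and a difference with Forskolin of about the same size. The 2153 regions overlapping an H3K4me3 region had a median length of 8506 bp, against 1712 bp for the others. Their column medians of log2(RPKM + 1) were 2.09 in C6FAE, 2.24 in CFAE and 2.58 in 6FAE, against 2.72 in C6AE, 2.90 in AE and 3.06 in Basal, a difference of -0.59. In the 17071 regions without H3K4me3 the group means were 1.88 and 2.43, a difference of -0.55. The excess of the overlapping over the other regions was 0.42 ± 0.12 (SD, n = 3) with Forskolin and 0.46 ± 0.31 (SD, n = 3) without. It differed by -0.04 (exact permutation p = 0.8, adjusted 0.8), by -0.12 to 0.08 within the quartiles of length, and by 0.05 in the regions with a founding peak in the left-out library. C6AE stood apart in this measure, with an excess of 0.10, where the other 5 libraries had 0.32 to 0.65. Without C6AE the excess differed by -0.22 (exact permutation p = 0.2).

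**Figure D4:**
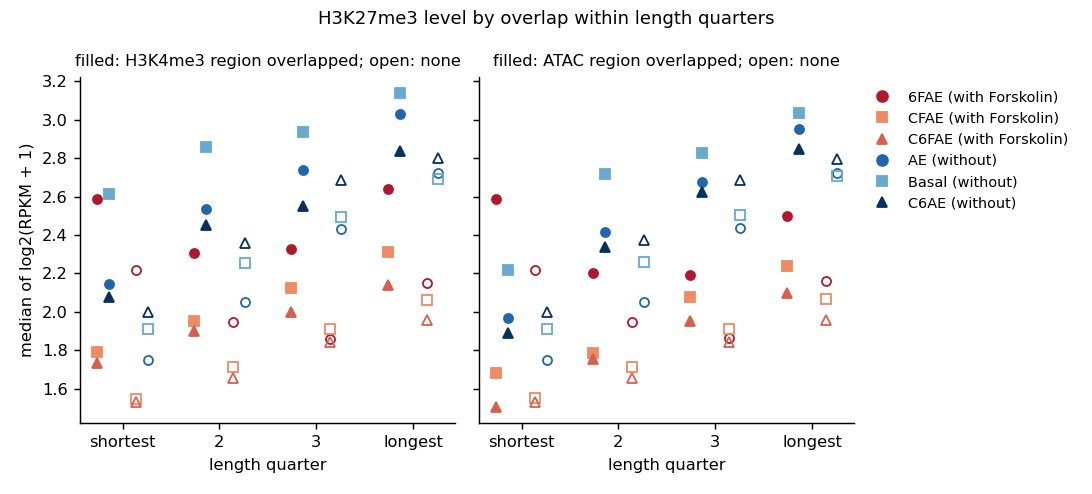
Median log2(RPKM + 1) of H3K27me3 (vertical axis) in the 4 quartiles of region length (horizontal axis), for regions that overlap (filled) or do not overlap (open) an H3K4me3 region (left) or an ATAC region (right); each symbol is 1 library. In the 2 longer quartiles every treatment with Forskolin lies below every treatment without it in overlapping and in other regions.

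Overlap with open chromatin gave a like picture. The 2848 regions overlapping an ATAC region (median length 8756 bp) had column medians of 2.04 in C6FAE, 2.17 in CFAE and 2.44 in 6FAE, against 2.74 in C6AE, 2.83 in AE and 2.95 in Basal, a difference of -0.62. The 16376 regions without an ATAC region differed by -0.55. The excess of overlapping regions was 0.34 ± 0.07 (SD, n = 3) with Forskolin and 0.42 ± 0.25 (SD, n = 3) without, and differed by -0.08 (exact permutation p = 0.7, adjusted 0.8), and by -0.0079 in the regions with a founding peak in the left-out library. C6AE stood apart here too, with an excess of 0.13, against 0.53 in Basal, 0.60 in AE and 0.28 to 0.42 with Forskolin. Without C6AE the excess differed by -0.22 (exact permutation p = 0.1). All treatments with Forskolin were lower in 48.5% of the 1502 regions with both overlaps, 47.9% of the 651 with H3K4me3 only, 57.1% of the 1346 with ATAC only and 33.8% of the 15725 with neither, against 37.0% of the whole table. Within the longest quartile these shares were closer, at 58.3% with and 68.5% without H3K4me3, and 63.6% with and 66.8% without ATAC overlap.

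The difference was spread over the chromosomes. The column medians were lower on average with Forskolin on all 20 chromosomes (1 to 19 and X), with differences of -0.69 to -0.39. The groups did not overlap on 19 of them, the exception being chromosome 3, where 6FAE (2.30) was above AE (2.19). The largest difference, -0.69, was on chromosome 15, where the medians were 1.76 in C6FAE, 1.89 in CFAE and 2.04 in 6FAE, against 2.47 in AE, 2.65 in Basal and 2.64 in C6AE. On chromosome 15 45.4% of the 724 regions were lower in all treatments with Forskolin, the highest share of any chromosome. Their median length was 2252 bp, against 1278 bp on chromosome 3. Chromosome 4 had the longest median length, 3046 bp, with a difference of -0.58.

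The X chromosome had the lowest share, 24.4% of 859 regions, and its regions were short, with a median of 1104 bp. Its column medians were 1.75 in CFAE, 1.81 in C6FAE and 1.94 in 6FAE, against 2.58 in C6AE, 2.29 in Basal and 2.03 in AE. The median over X minus that over autosomes was -0.11 ± 0.10 (SD, n = 3) with Forskolin and -0.21 ± 0.14 (SD, n = 3) without. The difference of 0.10 between these was within the spread between treatments (exact permutation p = 0.4, adjusted 0.64). It was 0.04 without AE or without C6FAE, 0.18 without C6AE, and 0.36 in the regions with a founding peak in the left-out library, of which 54 were on X.

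C6FAE and C6AE, whose names differ by F alone, gave the difference at its clearest, with no replicate check. Both libraries held more tags than the others compared, with 5919506 in C6FAE and 6392309 in C6AE. The median of log2(RPKM + 1) was 1.81 in C6FAE and 2.63 in C6AE, and C6FAE was lower in 85.4% of regions. It was at least 2-fold lower in 4922 regions (25.6%) and at least 2-fold higher in 300 (1.56%). In the longest quartile 98.6% of regions were lower in C6FAE, with a median difference of -0.81, and in the regions with a founding peak in the left-out library 95.7% were lower, with a median difference of -0.83. Centring moves all regions of a column alike, and past the same fold it left 273 regions lower (1.42%) and 2014 higher (10.5%). Of the latter, 1166 were in the shortest quartile, which is 24.3% of that quartile. C6AE had founded 11532 of the 19224 regions and C6FAE 509.

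The other treatments with Forskolin also lack C or 6 relative to C6AE, so Forskolin is not the only difference there. CFAE was at least 2-fold lower than C6AE in 4641 regions (24.1%) and higher in 767 (3.99%). 6FAE was lower in 6410 (33.3%) and higher in 3085 (16%), and 1751 of the latter were in the shortest quartile (36.4% of it). In the regions with a founding peak in the left-out library the median difference from C6AE was -0.64 in CFAE and -0.29 in 6FAE. The 3 treatments share C6AE as the reference, so these values are not independent.

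The peak lists, which hold each library apart, gave the same order. Among the 20000 peaks of highest -log10 p of each library, a peak overlapped 20.7% of table regions in C6FAE, 26.2% in CFAE and 31.7% in 6FAE, against 54.7% in C6AE, 47.6% in Basal and 43.6% in AE. The group means differed by -22.5 percentage points (exact permutation p = 0.1, adjusted 0.2). With the 5000 peaks of highest -log10 p the difference was -9.97 points (exact permutation p = 0.1), and with all listed peaks -4.46 points (exact permutation p = 0.4). As the table was built from these lists, this is not separate evidence of the lower level. The founding peaks covered 6.01 Mb in C6FAE, 11.8 Mb in CFAE and 12.0 Mb in 6FAE, against 47.1 Mb in Basal, 52.9 Mb in AE and 84.0 Mb in C6AE. Their median fold enrichment over background was 2.26 in 6FAE, 2.91 in CFAE and 2.94 in C6FAE, against 2.96 in Basal, 3.08 in C6AE and 3.13 in AE.

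H3K4me3 of the same treatments was lower with Forskolin as well. Its column medians of log2(RPKM + 1) over 12566 regions were 3.60 in 6FAE, 3.64 in C6FAE and 4.06 in CFAE, against 4.23 in Basal, 4.31 in AE and 4.69 in C6AE, a difference of -0.64 (exact permutation p = 0.1, adjusted 0.2). As deposited, 5889 regions (46.9%) were lower and 2 (0.0159%) higher at an adjusted p under 0.05 by limma, and after centring 0 in either direction, with 541 lower (4.31%) and 449 higher (3.57%) at an unadjusted p under 0.05. Without C6FAE no H3K4me3 region was called. Of the 12566 regions, leaving out 6FAE gave 284 lower, AE 1407 and C6AE 1901, and leaving out CFAE gave 9161. The C6AE library of H3K4me3 was the shallow one of that mark, with 745089 tags, against 3296306 to 7103488 in the others.

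**Figure D5:**
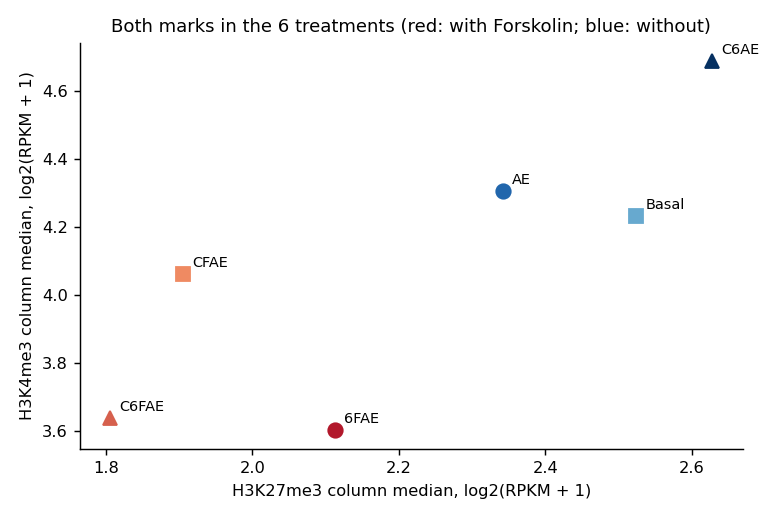
Column median of H3K4me3 (vertical axis) against that of H3K27me3 (horizontal axis), both as log2(RPKM + 1) over the regions of the mark's own table, in the 6 treatments; each symbol is 1 treatment, red with Forskolin and blue without. Both marks are lower in the 3 treatments with Forskolin, from 3.60 to 4.06 for H3K4me3 and from 1.81 to 2.11 for H3K27me3.

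The difference was not shown to be particular to H3K27me3. The H3K27me3 median minus the H3K4me3 median of a treatment was -1.49 in 6FAE, -1.83 in C6FAE and -2.16 in CFAE, against -1.71 in Basal, -1.96 in AE and -2.06 in C6AE. The group means of -1.83 ± 0.33 and -1.91 ± 0.18 (SD, n = 3 each) differed by 0.08 (exact permutation p = 0.7, adjusted 0.8). In the 2244 H3K4me3 regions that overlapped an H3K27me3 region, the H3K4me3 medians differed by -0.74 with Forskolin, and in the other 10322 by -0.62. The deposited RPKM were scaled to mapped reads, without spike-in chromatin named in the sources, and the part of immunoprecipitation efficiency in the lower level of both marks was not tested.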

How the data were processed

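H3K27me3 and H3K4me3 ChIP-seq of 6 treatments, 1 library each, were used. Per the labels and file headers, reads were aligned to mm9 with Bowtie2 and the authors called peaks in each library against input with MACS 2.1.2 (p threshold 0.05, tags extended to 250 bp). The peak lists deposited by the authors give a -log10 p, a fold enrichment (ratio) and a pileup signal, the last not used for a result. The authors averaged RPKM from deepTools 3.1.0 over regions made from merged peaks; a rebuild from peaks did not return every region, so a further filter is not given in the sources used here. All values of the deposited RPKM tables were used as log2(RPKM + 1), with no filter. Regions were tested with limma 3.58.1 (R 4.3.3, mean-variance trend, Benjamini-Hochberg adjustment over all regions), and single values per library with an exact two-sided permutation test over 20 splits. Centring subtracted the column median. Overlap was at least 1 bp. Python 3.11.15 with numpy 2.4.6, pandas 2.3.3 and scipy 1.17.1 was used. The limma script was tested on simulated data. The pseudocount, filter, chromosomes, normalization, trend, depth covariate, length, overlap and treatments used were varied. Named regions were the 5 largest decreases and increases with groups that did not overlap, on both scales, and the 3 longest. The members, classes and rules were chosen with earlier results of these data known. The 3 ChIP-seq samples titled Ctr, whose labels conflict, were left out of every comparison, and the peaks of the H3K27me3 one only chose regions. Intervals for counting error were not formed, since the tables hold no counts; depth is given as total tags.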

Additional observations from a re-analysis of the deposited data

How the results depend on the processing

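The lower median level, the length gap and the share of regions with a listed peak kept their direction under each setting varied as listed above, and no exact test of 3 against 3 could pass 0.05. Sizes moved: with a pseudocount of 10 the median level was -0.19 and the length gap -0.23, and the share was -4.46 points with all listed peaks. Leaving out each treatment gave -0.64 to -0.49 for the median level, -0.65 to -0.40 for the length gap, -0.22 to 0.0548 for the H3K4me3 overlap, -0.22 to 0.00893 for the ATAC overlap, 0.0420 to 0.18 for X against autosomes and -0.0835 to 0.25 for H3K27me3 minus H3K4me3. In regions founded with Forskolin only, a set that the readout chose, the mean of the column medians was higher by 0.75 with Forskolin. This rested mainly on the shallow 6FAE library, and the groups overlapped. The median there was 3.52 in 6FAE, 1.42 in C6FAE and 1.61 in CFAE, against a mean of 1.43 ± 0.07 (SD, n = 3) without Forskolin. The H3K4me3 overlap contrast turned to 0.10 with an overlap of at least 50% of the region, 0.0785 and 0.0425 in length quartiles 3 and 4 and 0.0499 in regions with a founding peak in the left-out library. The ATAC contrast turned to 0.015 with an overlap of at least 50% and to 0.0200, 0.0355 and 0.0123 in quartiles 1, 3 and 4; the cause was not tested.

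Called regions as deposited (lower, then higher) were 4467 and 47 with log10 tags as a covariate, 3889 and 10 in the longer part of regions (from the median length), 3064 and 4 of 4806 in the longest quartile, 979 and 1 of 1684 in regions with a founding peak in the left-out library, 15 and 12 after quantile normalization and 4 and 28 with columns centred on the 10% highest regions. These counts are descriptions, since the compared libraries had founded most of the regions. The longer part and the longest quartile entered the table largely through the libraries without Forskolin. Of the 1684 regions, 1310 lay in that quartile and 185 were founded by the left-out library alone. Leaving out 1 treatment gave 0 to 4416 lower and 0 to 71 higher. On centred columns, higher calls were 0 with a pseudocount of 10, without the trend, in the longer part, in the longest quartile and in the left-out library's regions, 1 with the filter on low RPKM, and 0 to 27 with 1 treatment left out. For H3K4me3, leaving out 1 treatment gave 0 to 9161 lower and 0 to 14 higher (0 to 1 higher when centred), and a pseudocount of 10 gave 0 higher. For C6FAE against C6AE, lower and higher regions were 11136 and 836 at 1.5-fold, 8091 and 797 with a pseudocount of 0.1, 1 and 4 with a pseudocount of 10, and 273 and 2014 when centred. The founding-peak sets, the longest quartile and the treatments left out for the difference between marks were added after seeing the data.

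No paired analysis was possible because each treatment has 1 library and the replicate numbers name different treatments. The 633980 tags of 6FAE limit what short regions can show.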
